A study of Mus musculus with 16 samples.

Results

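Pancreatic ganglion and Schwann cell genes were followed in islet RNA of 4 groups of mice through 7 genes, of 17864 genes listed in either of the 2 deposited tables. Prph, Vip and Chrna3 represent ganglion neurons, and Sox10, Gfap, S100b and Ngfr represent Schwann cells and other peripheral glia. All 7 symbols were present in both tables. The set was put together after Prph and Vip had been called in the comparison of AAV2/8-Ins2-B7-H4 with AAV2/8-Ctrl islets, so the values of the members in that comparison are given as a description, with no test. The comparison of B7-H4 cKO with Flox islets had no part in that choice and was tested.

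The pancreas contains small autonomic ganglia whose neurons receive vagal input through nicotinic receptors and send fibres to islets, acini and ducts. Most of these neurons are cholinergic, and many release peptides such as vasoactive intestinal peptide, which potentiates glucose-stimulated insulin secretion. Schwann cells ensheath the fibres and form a thin sheet at the islet border. Islets picked by hand after collagenase digestion can carry pieces of nerve, and ganglia lie close to islets.

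Flox mice carried loxP sites around exon 2 of both copies of Vtcn1, the gene of B7-H4, on a C57BL/6J background. B7-H4 cKO mice carried the same alleles and a Rip-Cre transgene, in which the rat insulin II promoter drives Cre recombinase in β cells. Both groups were fed a normal chow diet, and since Rip-Cre was named for cKO mice only, the transgene and the loss of B7-H4 cannot be told apart. The high-fat diet (HFD) groups were started on the diet at 6 weeks of age, received virus through the pancreatic duct after 8 weeks and gave islets 5 weeks later. OE denotes AAV2/8-Ins2-B7-H4, which expresses B7-H4 from an Ins2 promoter, and Ctrl denotes the control virus. The methods describe the HFD-fed mice as Flox, and the series text describes infused mice as wild type. Each group had 4 libraries, named here by the numbers in the sample labels. The labels do not say what these numbers stand for or whether every library came from a separate mouse, so p-values measure the spread between libraries.

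The values are FPKM, fragment counts scaled by gene length and by library size. All values of the 7 genes were whole multiples of the value of 1 fragment, to a tolerance of 0.001, so that fragments could be counted up to a factor common to all libraries. A library with 0 fragments allows, at a limit of 3 fragments and for counting error only, up to 0.0399 to 0.0466 FPKM of Prph, 0.0551 to 0.0649 FPKM of Vip and 0.0205 to 0.0241 FPKM of Chrna3. Relative depth differed little, from 0.942 to 1.07 among the chow libraries and from 0.840 to 1.08 among the HFD libraries. Vtcn1 stood at 40.0 to 128 FPKM in OE and at no more than 0.371 FPKM in Ctrl. Its level did not separate cKO (0.0202 to 0.125 FPKM) from Flox (0.0188 to 0.216 FPKM). Vtcn1 was low in both genotypes, and FPKM was given per gene while the loxP sites flank only part of it. The overlap therefore does not show that the deletion failed. The paper reports lower mRNA of this gene by quantitative PCR, and less of its protein, in cKO than in Flox islets. Flox16 stood apart from its group: Tph1, which encodes an enzyme of serotonin synthesis, was at 112 FPKM in Flox16 and at 116 to 150 FPKM in cKO, but at 0.0318 to 0.0885 FPKM in the other 3 Flox libraries. Since Vtcn1 levels do not separate the genotypes, they give no check of the Flox16 label, and whether that library was mislabelled or came from a mouse with Cre was not tested, which leaves every cKO against Flox value dependent on that label. Results that rest on Flox16 are therefore given with and without it. Flox16 was set apart after its values were seen, so calls and p-values without it are descriptions and not tests.

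The data did not support treating the 7 genes as a single unit. The 3 neuron genes were high and low in much the same libraries, except that Flox16 held 26 fragments of Vip with 1 of Prph and 0 of Chrna3. Sox10, Gfap and S100b were low and each peaked in a different library, and Ngfr was high in 5 chow libraries where the other members were not all high. They are therefore described in that order.

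The neuron genes lie on 3 chromosomes of GRCm38 (mm10, the build named by the submitters). Prph, at chr15:99055174-99058978 on the plus strand, encodes peripherin, an intermediate filament of peripheral neurons. Vip, at chr10:5639218-5647617 on the plus strand, encodes the vasoactive intestinal peptide. Chrna3, at chr9:55010111-55026562 on the minus strand, encodes the nicotinic receptor subunit that carries fast transmission in autonomic ganglia. Their promoters are shown because these 3 genes went up and down together, and Ngfr is set beside them as the member that did not. Each line holds the 225 bases from 250 to 26 bases before the RefSeq start in GRCm38.p6, read 5′ to 3′ on the strand of the gene: chr15:99054924-99055148 (plus) for Prph, chr10:5638968-5639192 (plus) for Vip, chr9:55026588-55026812 (minus) for Chrna3 and chr11:95587724-95587948 (minus) for Ngfr. Capitals mark TGACG, which is CGTCA, the core of a cAMP response element, on the other strand.
Prph: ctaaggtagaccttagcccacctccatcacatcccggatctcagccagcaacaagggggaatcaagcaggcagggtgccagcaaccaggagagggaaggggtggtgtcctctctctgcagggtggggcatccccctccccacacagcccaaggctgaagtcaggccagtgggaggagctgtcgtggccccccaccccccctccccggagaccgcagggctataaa
Vip: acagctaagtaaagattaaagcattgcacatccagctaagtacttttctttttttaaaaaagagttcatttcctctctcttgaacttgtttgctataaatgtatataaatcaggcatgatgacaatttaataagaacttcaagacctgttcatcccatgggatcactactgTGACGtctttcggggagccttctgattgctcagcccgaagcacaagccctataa
Chrna3: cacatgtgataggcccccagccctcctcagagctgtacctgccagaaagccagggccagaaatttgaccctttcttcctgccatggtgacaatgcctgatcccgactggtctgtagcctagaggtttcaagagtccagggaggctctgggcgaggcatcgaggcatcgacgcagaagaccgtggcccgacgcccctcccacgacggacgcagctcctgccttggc
Ngfr: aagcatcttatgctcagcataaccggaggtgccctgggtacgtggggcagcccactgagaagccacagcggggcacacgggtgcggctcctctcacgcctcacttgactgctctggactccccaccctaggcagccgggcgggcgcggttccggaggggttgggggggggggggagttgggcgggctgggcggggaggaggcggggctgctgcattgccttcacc

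The Vip window held 1 CGTCA, with its first base 79 bases before the start (position -79), and none of the other 5 members with a window held it. CGTCA was found in 15.3% of 32851 windows of the same length on either strand. The whole element TGACGTCA was in 1.20% of all windows and in none of the 6 members. The SOX cores ACAAAG and AACAAT were in 15.1% and 8.82% of all windows and in none of the 6. The E-box CANNTG was in 62.7% of all windows, and was found in Chrna3, S100b and Ngfr. No window was given for Sox10.

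In HFD-fed mice all 3 neuron genes were at or near 0 in Ctrl islets and were present in every OE library. Prph was at 0.135, 0.0132, 0 and 0 FPKM in Ctrl1, Ctrl2, Ctrl3 and Ctrl5 and at 2.00, 2.39, 1.99 and 2.83 FPKM in OE1 to OE4. In fragments, Ctrl1 held 9 and Ctrl2 held 1, against 157, 185, 165 and 221 in OE1 to OE4. Every OE library was above every Ctrl library, and the means were 2.30 ± 0.398 FPKM in OE and 0.0371 ± 0.0657 FPKM in Ctrl (SD, n = 4).

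Vip was at 0.147 FPKM in Ctrl1 and at 0 in the other 3 Ctrl libraries. It was at 1.35, 2.83, 1.86 and 1.60 FPKM in OE1 to OE4, which is 76 to 157 fragments a library. The groups did not overlap, with means of 1.91 ± 0.647 FPKM in OE and 0.0367 ± 0.0733 FPKM in Ctrl (SD, n = 4).

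Chrna3 was lower than the other neuron genes but had the same pattern. It was at 0.0311 FPKM (4 fragments) in Ctrl1 and at 0 in Ctrl2, Ctrl3 and Ctrl5, against 0.448, 0.516, 0.611 and 0.410 FPKM in OE1 to OE4. The OE mean was 0.496 ± 0.0878 FPKM (SD, n = 4). On the log2(FPKM + 0.5) scale, which understates the change of low genes, OE minus Ctrl was 2.38 for Prph, 2.14 for Vip and 0.97 for Chrna3. These differences were read against a median of 0.44 over all 12132 genes tested, and after median-of-ratios scaling, which brought that median to near 0, Prph was at 2.17 and Chrna3 at 0.84. In bulk islet RNA, more cells of a type and more RNA per cell cannot be told apart.

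Groups that did not overlap, with OE higher, were found for 3 of the 7 members and for 4.91% of all genes of the table, and since this comparison served to choose the members nothing is read from that count. By limma, 0.033% of genes were called as higher in OE, or 4 of 12132, where a call needed an absolute difference over 1 on the log2(FPKM + 0.5) scale with an adjusted p below 0.05. Chrna3 and the 4 glial members had a mean under 0.5 FPKM over the 8 libraries and were not part of the fit.

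**Figure D1:**
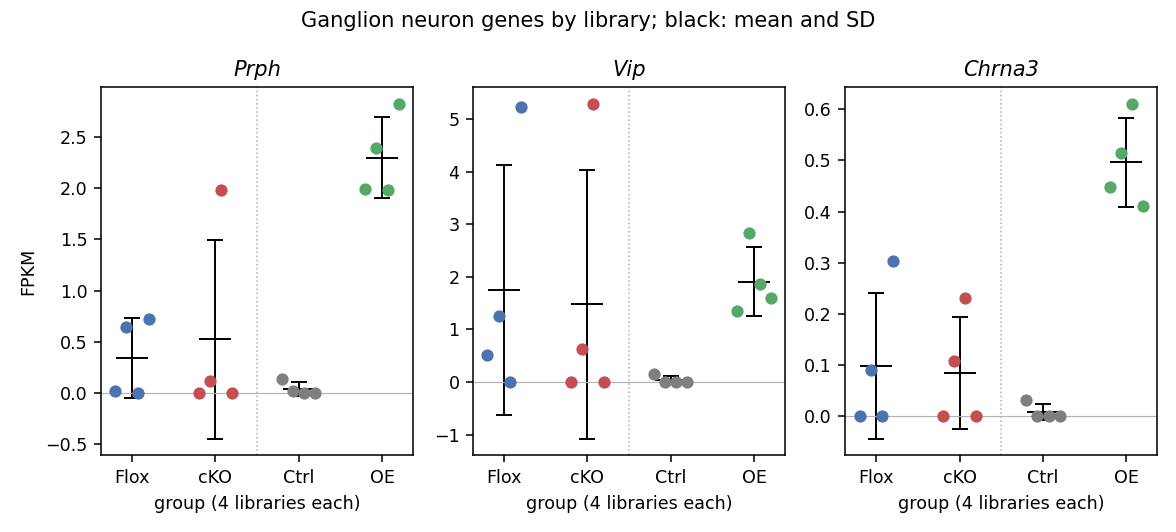
FPKM of Prph, Vip and Chrna3 (y axis) in each library of the Flox, cKO, Ctrl and OE groups (x axis, 4 coloured points each), with the mean and SD in black. All 4 OE libraries stand above the Ctrl libraries for each gene, while Flox and cKO each hold high libraries and libraries at 0.

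In chow-fed mice the same 3 genes varied widely from library to library within both genotypes. Vip was at 0.512, 1.25, 0 and 5.23 FPKM in libraries Flox16, Flox17, Flox20 and Flox21, respectively, while it was at 0, 0.637, 5.28 and 0 FPKM in cKO8, cKO9, cKO12 and cKO38. One library of each genotype thus reached over 5 FPKM, and 3 libraries held no fragment. The group means were 1.48 ± 2.55 FPKM in cKO and 1.75 ± 2.38 FPKM in Flox (SD, n = 4).

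Prph was at 0.0141, 0.642, 0 and 0.723 FPKM in the Flox libraries and at 0, 0.118, 1.98 and 0 FPKM in the cKO libraries, in the same order. Its 8 libraries ranked as they did for Vip. Chrna3 was at 0, 0.0886, 0 and 0.302 FPKM in Flox and at 0, 0.107, 0.231 and 0 FPKM in cKO, so the 3 libraries without Vip held none of the 3 transcripts. Summed over Prph, Vip and Chrna3, the fragments were 27, 120, 0 and 364 in Flox16, Flox17, Flox20 and Flox21 and 0, 53, 433 and 0 in cKO8, cKO9, cKO12 and cKO38. In the HFD table the sums were 20, 1, 0 and 0 in Ctrl1, Ctrl2, Ctrl3 and Ctrl5 and 301, 419, 374 and 373 in OE1 to OE4. Ctrl2, Ctrl3 and Ctrl5 thus held at most 1 fragment, and the 3 chow libraries Flox20, cKO8 and cKO38 held 0.

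No difference between cKO and Flox was detected for these genes. Of the members, Vip and Ngfr passed the filter of a mean of 0.5 FPKM, and limma called 0 of these 2, with 0 at an unadjusted p under 0.05. The background was 1.31% of 11804 genes called, 0.339% as higher and 0.974% as lower in cKO. Groups of all 7 members overlapped, beside 1.44% of all genes of the table with cKO wholly above Flox and 11.7% with cKO wholly below. Vip differed by -0.41 on the log2 scale (standard error 1.10, limma adjusted p = 0.778), beside a median of -0.34 over all genes tested. For Prph the log2 difference was 0.02 (standard error 0.66) with p = 1 in a two-sided exact permutation test over libraries. For Chrna3 it was -0.02 (standard error 0.21) with p = 1 in the same exact permutation test. The smallest p that 4 libraries against 4 can give is 0.0286, and these p-values were not adjusted. The standard errors are large beside the differences, so these data do not show that the genotypes are alike.

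The proportions among the neuron genes differed between libraries. The ratio of Vip to Prph FPKM was 1.95 in Flox17, 7.24 in Flox21, 5.40 in cKO9 and 2.67 in cKO12, the chow libraries with at least 5 fragments of both genes. In OE1 to OE4 it was 0.675, 1.18, 0.938 and 0.568, and in Ctrl1 it was 1.08. All 4 chow ratios were above all HFD ratios. Such a ratio lies within a library and does not depend on how the library was scaled, but the libraries were selected by their counts and no test was made. The ratio of Chrna3 to Prph showed no such separation, at 0.116 to 0.906 in chow and 0.145 to 0.308 in OE.

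Some other transcripts of autonomic neurons were also higher in every OE library. Among the 24 other autonomic neuron genes, 13 had every OE library above every Ctrl library, 0 had the reverse and the others overlapped, beside 4.91% of all genes higher and 1.05% lower. The median log2 difference was 0.39 over the 24 genes and 0.25 over all genes of the table. By limma, 0 of the 8 that passed the filter were called, and the lowest adjusted p was 0.0834, for Htr3a. Of these 8, 4 had an unadjusted p under 0.05, beside 778 of all 12132 genes tested.

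These 13 genes were of different kinds. Htr3a, a subunit of a serotonin-gated channel found on autonomic neurons, was at 0.0325, 0, 0 and 0.0168 FPKM in Ctrl and at 0.895, 0.993, 1.21 and 0.885 FPKM in OE. Slc18a3, the vesicular acetylcholine transporter and a marker of cholinergic neurons, was at 0 in all 4 Ctrl libraries and at 0.594, 0.628, 0.753 and 0.788 FPKM in OE. Nos1, the neuronal nitric oxide synthase that many VIP neurons contain, was at 0.101 FPKM or less in Ctrl and at 0.577 to 0.820 FPKM in OE. Phox2a, a transcription factor of autonomic neurons, was at 0.0211 FPKM or less in Ctrl and at 0.196 to 0.663 FPKM in OE. These 4 genes were near 0 in Ctrl, as the members were.

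The tyrosine kinase receptor Ret, tyrosine hydroxylase (Th) and the peptide Npy were present in every Ctrl library. Ret was at 1.42 to 13.9 FPKM in Ctrl and at 15.7 to 21.7 FPKM in OE, Th at 4.09 to 28.7 against 29.4 to 33.2 FPKM, and Npy at 1.16 to 13.8 against 16.9 to 24.6 FPKM. For all 3 genes Ctrl3 was the lowest library, and Ctrl3 also had the lowest summed share of β cell markers, 4.38%, of a range of 4.38% to 55.1% in Ctrl and 47.0% to 51.1% in OE. Chrna7 was at 0 to 0.162 FPKM in Ctrl and at 0.220 to 0.530 FPKM in OE.

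In chow libraries Slc18a3, Phox2a and Htr3a were highest where Vip and Prph were highest, whereas Nos1 was at 0.133 and 0.0883 FPKM in cKO8 and cKO38, which held no Vip, and at 0.126 FPKM in Flox21. Slc18a3 was at 0, 0.0399, 0 and 0.234 FPKM in Flox (same order) and at 0, 0.179, 0.576 and 0 FPKM in cKO8, cKO9, cKO12 and cKO38. Phox2a was at 0.0396, 0.120, 0 and 0.312 FPKM in Flox and at 0, 0.206, 0.362 and 0 FPKM in cKO. Htr3a was highest in cKO12 (0.451 FPKM) and Flox21 (0.301 FPKM) and was at 0 in cKO8 and cKO38. The choline transporter Slc5a7, which was picked after its values were seen, also reached its chow maximum in cKO12, at 0.443 FPKM, and was at 0 in Flox20, cKO8 and cKO38. By limma, 1 of the 6 autonomic genes tested between cKO and Flox was called (Chrna7, described with Ngfr). Of the 13 tested cytoskeleton and synapse genes, 0 were called and 2 had an unadjusted p under 0.05, beside 4894 of all 11804 genes tested. Ret was at 10.1 FPKM in Flox16, within the cKO range of 6.88 to 10.9 FPKM, and at 15.0 to 22.2 FPKM in the other Flox libraries. Without Flox16 it was called as lower in cKO (log2 fold change -1.08, standard error 0.22, limma adjusted p = 0.00047), as were 2.82% of 11800 genes. Among defining genes chosen after their values were seen, Chat, which makes acetylcholine, did not exceed 0.1004 FPKM in any library. Dbh and Slc6a2, which mark noradrenergic neurons, did not exceed 0.0255 and 0.0204 FPKM. Low as it was, Chat was at 0 in every Ctrl library and at 0.0103 to 0.0816 FPKM in OE. Slc5a7 was at 0 to 0.0247 FPKM in Ctrl and at 0.0894 to 0.255 FPKM in OE. Chat and Slc5a7 thus had every OE library above every Ctrl library.

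**Figure D2:**
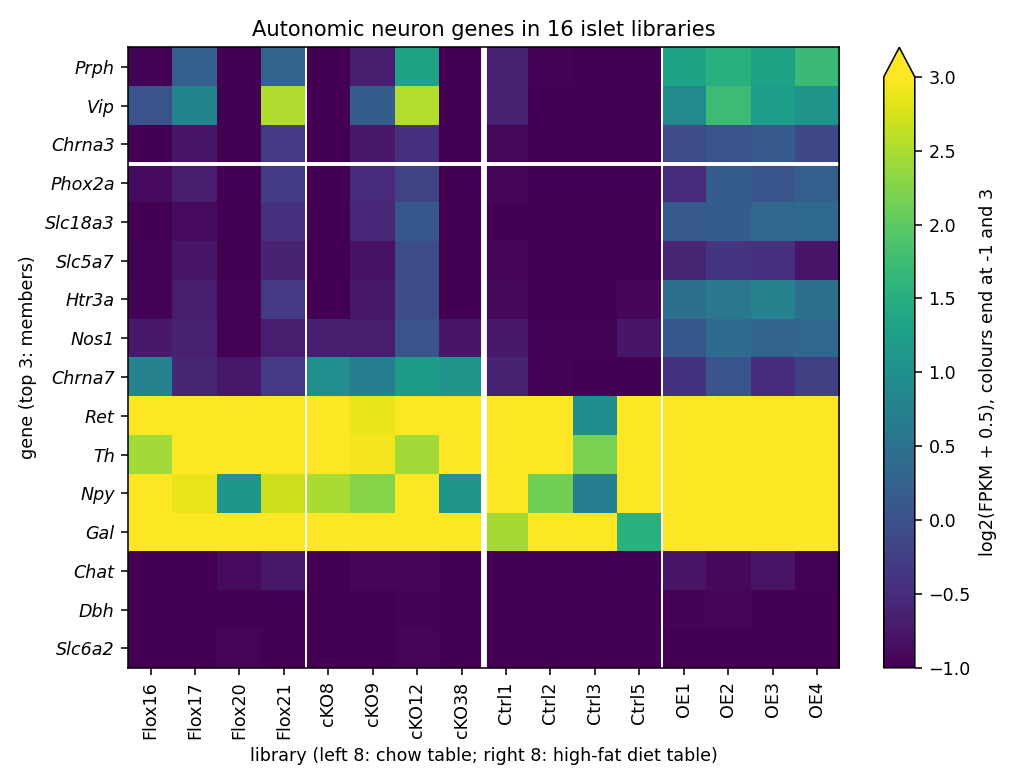
Heat map of log2(FPKM + 0.5) for Prph, Vip and Chrna3 (top 3 rows) and the autonomic neuron genes named in the text (y axis) in 16 libraries (x axis, chow on the left and HFD on the right of the thick line), with colours ending at -1 and 3. Prph, Vip, Slc18a3 and Htr3a are brightest in OE1 to OE4, cKO12 and Flox21 and dark in Flox20, cKO8, cKO38 and Ctrl2, Ctrl3 and Ctrl5, while Ret, Th, Npy and Gal are present throughout.

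General neuronal genes, many of which endocrine cells also express, were read as a separate list. Of 15 cytoskeleton and synapse genes, 5 had every OE library above every Ctrl library and 0 had the reverse, beside 4.91% and 1.05% of all genes. By limma, 0 of the 13 tested were called, although 9 had an unadjusted p under 0.05, beside 778 of all 12132 genes tested. The median log2 difference of the 15 was 1.03, beside 0.25 over all genes of the table. Nefl, the light neurofilament subunit, was at 0 in all 4 Ctrl libraries and at 0.407, 0.517, 0.626 and 0.469 FPKM in OE1 to OE4. In chow it was highest in cKO12, at 0.450 FPKM, and at 0 in cKO8 and cKO38. Elavl3, an RNA-binding protein of neurons, was at 0 to 0.0348 FPKM in Ctrl and at 0.0594 to 0.172 FPKM in OE. Tubb3 (0.982 to 16.6 against 23.6 to 30.7 FPKM), Ina (0.746 to 12.9 against 13.2 to 14.9 FPKM) and Nefh (0.140 to 2.10 against 2.19 to 2.72 FPKM) were present in every Ctrl library.

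The genes with profiles most like the neuron genes were sought over the 8 HFD libraries, by Pearson correlation of log2(FPKM + 0.5) among genes that averaged 0.5 FPKM or more. The 8 points fall into an OE and a Ctrl cluster and the genes share libraries, so r is a measure of likeness and has no p. Nearest to Prph were Htr3a (r = 0.981), Vtcn1 (r = 0.980) and Vip (r = 0.978). Nearest to Vip were Pard6b (r = 0.997), Vtcn1 (r = 0.984) and Htr3a (r = 0.978). Nearest to Chrna3 were Htr3a (r = 0.998), Ghrl (r = 0.987) and Vtcn1 (r = 0.983). In the chow table Htr3a stayed near all 3, with r of 0.961 to Prph, 0.959 to Vip and 0.939 to Chrna3. Vtcn1, which the virus supplies in OE, had r of 0.194, 0.474 and 0.651 there, and Pard6b, a cell polarity protein, had r of -0.292 to Vip.

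Marker lists of other cell types were set beside these results. Acinar markers made up 2.15% to 75.1% of the summed FPKM in Ctrl and 11.1% to 14.5% in OE. Ctrl5, with the lowest acinar share, and Ctrl3, with the highest, each held no fragment of Prph, Vip or Chrna3. The part of acinar tissue in the neuron gene values was not tested. In chow the acinar share was 7.47% to 35.7% in Flox and 36.5% to 46.1% in cKO, and the libraries richest in neuron fragments were Flox21, with an acinar share of 7.47%, and cKO12, with 43.2%.

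All 12 gut epithelium markers were listed in the HFD table, with summed levels of 19.4 to 108.5 FPKM in Ctrl and 91.8 to 100.3 FPKM in OE. The defining enterocyte genes Fabp2, Sis and Alpi were at 0 in all 4 Ctrl libraries. Fabp2 was at 0.446, 0, 0.927 and 1.19 FPKM and Alpi at 1.34, 0.0125, 0.545 and 0.370 FPKM in OE1 to OE4, and OE2, with the most Vip, was the lowest OE library for both. Of the 12 markers, 5 (Sis, Alpi, Apoa4, Lct and Anpep) had every OE library above every Ctrl library and 0 had the reverse, beside 4.91% and 1.05% of all genes, so these gut markers were higher in the same group as the neuron genes. Of the 12 markers, 10 were listed for the chow libraries, with summed levels of 59.3 to 85.5 FPKM in Flox and 57.2 to 79.0 FPKM in cKO. cKO12 had Fabp2, Apoa4, Clca1 and Muc2 at 0, whereas Flox17 had the goblet cell gene Clca1 at 8.09 FPKM and Muc2 at 0.668 FPKM. The 8 smooth muscle markers summed to 6.01 to 13.0 FPKM in OE and 3.74 to 28.8 FPKM in Ctrl. The part of these cell types in the result was not tested.

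**Figure D3:**
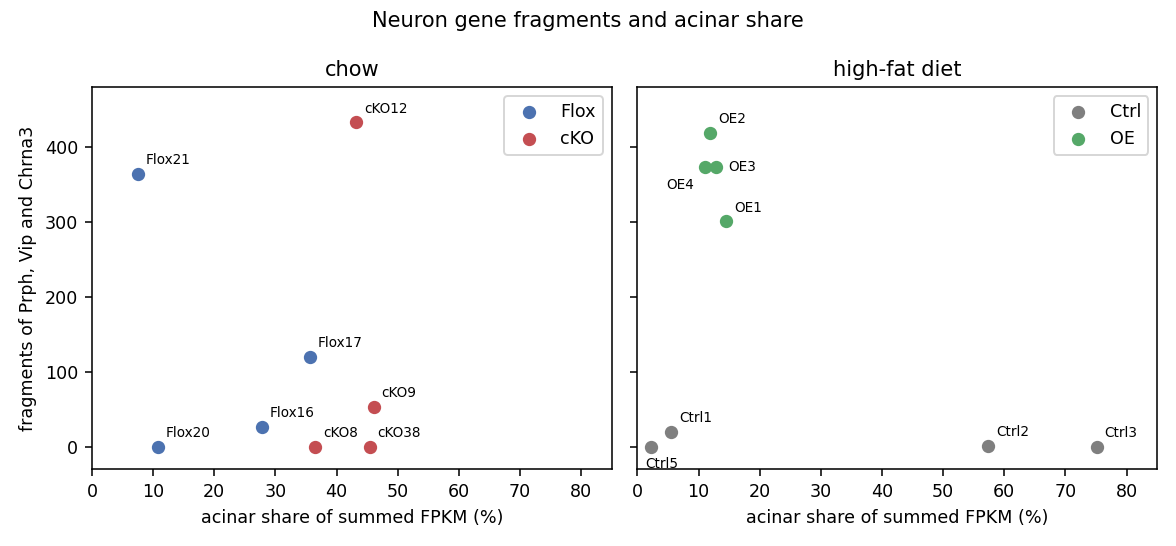
Fragments of Prph, Vip and Chrna3 summed per library (y axis) against the acinar share of summed FPKM in percent (x axis), for Flox and cKO libraries (left) and Ctrl and OE libraries (right). Flox21 (364 fragments) and cKO12 (433 fragments) lie near opposite ends of the chow range of acinar shares, and Ctrl5 and Ctrl3 hold 0 fragments at both ends of the HFD range.

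Sox10, Gfap and S100b did not exceed 1 FPKM in any library. Sox10, at chr15:79154908-79165240 on the minus strand, encodes the transcription factor that defines Schwann cells and other neural crest glia. It was at 0.0250, 0.0109, 0.0484 and 0.761 FPKM in Ctrl1, Ctrl2, Ctrl3 and Ctrl5 and at 0.148, 0.279, 0.110 and 0.0319 FPKM in OE1 to OE4. Ctrl5, which had no neuron transcript, thus had the highest Sox10 of all 16 libraries, and the groups overlapped. In chow it was at 0.141, 0.166, 0.111 and 0.0462 FPKM in Flox and at 0.0122, 0.0857, 0.274 and 0.101 FPKM in cKO. The cKO minus Flox difference was -0.01 on the log2 scale (standard error 0.14, exact permutation p = 0.971). All chow values of Sox10 were 1 to 23 fragments.

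Gfap, at chr11:102887336-102900912 on the minus strand, encodes the glial fibrillary acidic protein of non-myelinating Schwann cells. It was at 0.00782, 0.0474, 0.0516 and 0.323 FPKM in the Flox libraries, listed as above, against 0.00812, 0.0163, 0 and 0.00841 FPKM in cKO. Flox21 held 42 fragments, and no cKO library held more than 2. The difference was -0.23 (standard error 0.16, exact permutation p = 0.114), and without Flox16 the groups did not overlap, as for 16.7% of all genes with cKO lower, with an exact permutation p of 0.0571, the smallest that 4 against 3 libraries can give. In HFD islets Gfap was at 0.0998, 0.00729, 0 and 0.0945 FPKM in Ctrl and at 0.0845, 0.0572, 0.0599 and 0.0637 FPKM in OE, with overlapping groups.

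S100b, at chr10:76253853-76261159 on the plus strand, encodes a calcium-binding protein abundant in Schwann cells. It was at 0.0192, 0.135, 0.0361 and 0.0189 FPKM in Flox and at 0.0796, 0.120, 0.273 and 0 FPKM in cKO (log2 difference 0.15, standard error 0.15, exact permutation p = 0.371). In HFD islets it was at 0.224, 0.0893, 0.138 and 0.232 FPKM in Ctrl and at 0.0345, 0.246, 0.0980 and 0.243 FPKM in OE, and was detected in every one of these libraries. S100b overlaps Dip2a on the opposite strand and Gfap overlaps the noncoding gene Gm26668 on the opposite strand. Whether fragments were counted by strand is not given in the sources used here, so low values of S100b and Gfap may hold fragments of their neighbours.

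**Figure D4:**
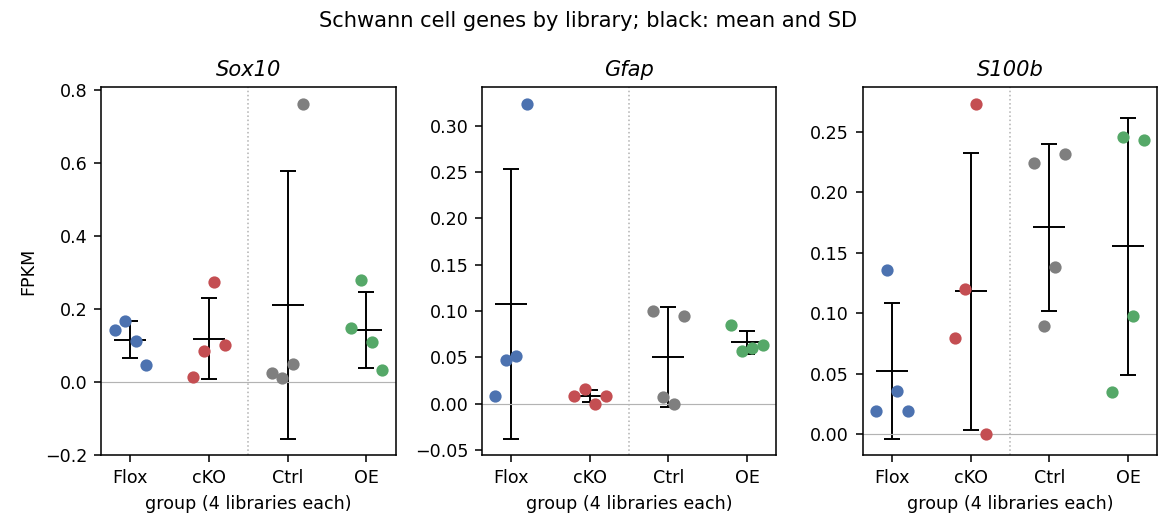
FPKM of Sox10, Gfap and S100b (y axis) in each library of the Flox, cKO, Ctrl and OE groups (x axis, 4 coloured points each), with the mean and SD in black. Sox10 has its maximum in a Ctrl library (0.761 FPKM), Gfap in a Flox library (0.323 FPKM) and S100b in a cKO library (0.273 FPKM), and the groups overlap within each diet.

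Likeness among Sox10, Gfap and S100b differed by pair. Over the 8 chow libraries Pearson's r was -0.367 between Sox10 and Gfap, 0.645 between Sox10 and S100b and -0.333 between Gfap and S100b, and over the 8 HFD libraries it was 0.450, 0.315 and 0.302. Between the neuron genes it was 0.845 to 0.952 in chow and 0.972 to 0.980 in HFD, again as a description with no p. Between neuron and glial genes r in chow reached 0.737 for Prph and S100b, 0.629 for Prph and Sox10 and 0.640 for Chrna3 and Gfap. Ngfr had r of -0.0943 to -0.198 with the neuron genes in chow and 0.549 to 0.615 in HFD, where it had 0.557, 0.697 and 0.556 with Sox10, Gfap and S100b. The genes nearest to Sox10 in the HFD table were Rpl26 (r = 0.986), Atp23 (r = 0.965) and Lhpp (r = 0.964). All 3 had their HFD maximum in Ctrl5, at 573, 0.940 and 2.35 FPKM. Ctrl5 also had the highest summed share of endothelial (0.107%) and macrophage (0.0778%) markers of the HFD libraries, and the part of these cells in the Sox10 value was not tested.

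Of the 26 other Schwann cell genes, all were listed in the chow table and 25 in the HFD table. Between OE and Ctrl, Mbp (3.29 to 4.57 against 0.625 to 3.04 FPKM) and L1cam (1.75 to 2.07 against 0.294 to 1.64 FPKM) were higher in every OE library. None was lower in every OE library, beside 4.91% of all genes higher and 1.05% lower. By limma, 0 of the 10 tested were called and 2 had an unadjusted p under 0.05, beside 778 of all 12132 genes tested. Mbp encodes a myelin protein and L1cam an adhesion molecule of axons and Schwann cells. The median log2 difference over the 25 was 0.09, below the 0.25 of all genes. Between cKO and Flox, limma called 0 higher and 1 lower of the 10 tested, and the median was -0.13, beside -0.22 over all genes. The gene called was Pmp22, a myelin protein that other cells also make, at 1.98, 3.15, 3.31 and 3.34 FPKM in Flox and at 1.29, 0.956, 1.70 and 0.591 FPKM in cKO (log2 fold change -1.10, standard error 0.22, limma adjusted p = 0.0141). Gpr37l1, a receptor of glial cells, was at 0.0848 to 0.139 FPKM in Flox and at 0 to 0.0737 FPKM in cKO. Pmp22 and Gpr37l1 thus had every cKO library below every Flox library, as had 11.7% of all genes of the table.

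Ngfr had a pattern of its own. It lies at chr11:95568818-95587735 on the minus strand and encodes the low-affinity neurotrophin receptor p75, which Schwann cells and sensory and sympathetic neurons carry. In Flox16, Flox17, Flox20 and Flox21 it was at 14.3, 0.0660, 0.167 and 0.331 FPKM, and in cKO8, cKO9, cKO12 and cKO38 at 4.87, 4.996, 9.70 and 5.78 FPKM. Flox16 was the highest of all 16 libraries, with 1534 fragments, and the other 3 Flox libraries held 7, 19 and 36. In HFD islets Ngfr stayed low, at 0.278, 0.0435, 0.0385 and 0.698 FPKM in Ctrl and at 0.370, 0.675, 0.406 and 0.786 FPKM in OE, with overlapping groups.

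Over all 8 chow libraries the mean of Ngfr was 6.34 ± 2.28 FPKM in cKO and 3.72 ± 7.07 FPKM in Flox (SD, n = 4), and the difference was not called (log2 fold change 2.17, standard error 1.12, limma adjusted p = 0.180). The exact permutation p was 0.143. Without Flox16 the Flox mean was 0.188 ± 0.134 FPKM (SD, n = 3) and Ngfr was called as higher in cKO (log2 fold change 3.28, standard error 0.23, limma adjusted p = 2.08e-14), as were 1.34% of 11800 genes (2.82% were called as lower). Every cKO library then stood above every Flox library, as for 3.78% of all genes, with an exact permutation p of 0.0571, the smallest that 4 against 3 libraries can give. The limma p rests on variances shared across genes. Flox16 was left out after its values were seen and was itself the highest library for Ngfr. The call without it is therefore a description and not a test. When any of the other 7 libraries was left out instead, Ngfr was not called, with log2 fold changes between 1.71 and 2.27.

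The libraries with Ngfr were those with Tph1. Gfra3, a receptor of artemin that is on the list of Schwann cell genes, was at 20.4 FPKM in Flox16 and at 16.1, 21.05, 19.1 and 27.0 FPKM in cKO8, cKO9, cKO12 and cKO38, but at 0.950, 0.752 and 1.11 FPKM in Flox17, Flox20 and Flox21. With all 8 libraries Gfra3 was not called (2.91, standard error 0.96, limma adjusted p = 0.0799). Without Flox16, which was itself high for Gfra3, it was called as higher in cKO (log2 fold change 3.87, standard error 0.22, limma adjusted p = 2.12e-17), as were 1.34% of 11800 genes. Chrna7, a nicotinic receptor subunit on the autonomic list, was at 1.20 FPKM in Flox16, at 1.16 to 1.76 FPKM in cKO and at 0.1005 to 0.300 FPKM in the other Flox libraries. It was called with Flox16 (log2 fold change 1.21, standard error 0.27, limma adjusted p = 0.0221) and without it (1.54, standard error 0.20, limma adjusted p = 6.60e-07). The 3 genes nearest to Ngfr in the chow table, chosen after the values were seen, were Syt10 (r = 0.996), Lingo1 (r = 0.994) and Kcnj5 (r = 0.989). Syt10 was at 2.41 FPKM in Flox16, at 1.11 to 1.88 FPKM in cKO and at 0 in the other 3 Flox libraries.

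The neuron transcripts were not high in the same libraries. cKO8 and cKO38 held Ngfr at 4.87 and 5.78 FPKM with no fragment of Prph, Vip or Chrna3, and Flox21 held Vip at 5.23 FPKM with Ngfr at 0.331 FPKM. The 5 libraries high in Ngfr had acinar shares of 27.8% to 46.1%, and Flox17, Flox20 and Flox21 had 35.7%, 10.7% and 7.47%. With the acinar share as a covariate the Ngfr difference was 1.14 on the log2 scale, against 2.17 without it, and was not called (limma adjusted p = 0.945). In that fit 0 of all 11804 genes were called. Acinar shares were 7.47% to 35.7% in Flox and 36.5% to 46.1% in cKO, without overlap. The fit therefore separates genotype from acinar share poorly, and nothing is read from it about Ngfr. The part of acinar tissue in the Ngfr difference was not tested.

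**Figure D5:**
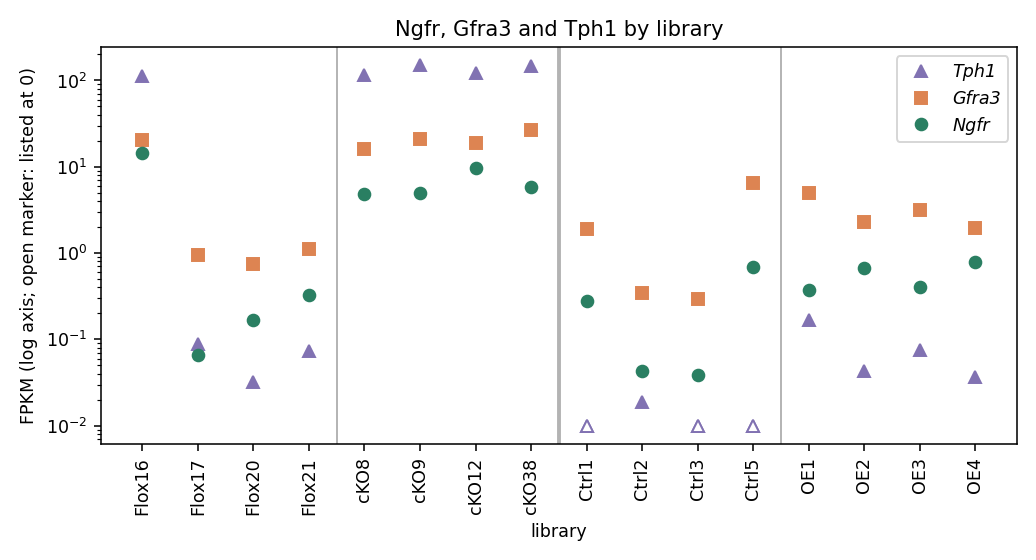
FPKM on a log axis (y axis) of Tph1 (triangles), Gfra3 (squares) and Ngfr (circles) in each of the 16 libraries (x axis), with open markers for values listed at 0, drawn at the bottom. Flox16 lies with the 4 cKO libraries for all 3 genes (Ngfr 14.3 FPKM, Gfra3 20.4 FPKM, Tph1 112 FPKM), and the other Flox libraries lie below.

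Receptors of the VIP peptide and trophic factors of these cells were read for completeness of the pathway, as a list of 16 genes. Vipr1, the main VIP receptor of the list by level, was at 8.49, 13.9, 18.4 and 19.4 FPKM in Flox and at 9.87, 6.84, 7.31 and 6.39 FPKM in cKO. The groups overlapped through Flox16 and the gene was not called (-0.89, limma adjusted p = 0.0264, under the fold minimum). Without Flox16 Vipr1 was called as lower in cKO (log2 fold change -1.13, standard error 0.21, limma adjusted p = 0.000235), as were 2.82% of 11800 genes. Vipr2, chosen outside the rule for named genes, did not exceed 0.645 FPKM in any library. Nrtn, which encodes neurturin, a trophic factor of parasympathetic neurons, was at 9.06, 13.9, 34.6 and 30.3 FPKM in Flox and at 8.34, 7.11, 8.46 and 4.37 FPKM in cKO. Every cKO library was below every Flox library, as for 11.7% of all genes, but the gene was not called (log2 fold change -1.42, standard error 0.45, limma adjusted p = 0.0684). Without Flox16 it was called as lower in cKO (log2 fold change -1.76, standard error 0.30, limma adjusted p = 0.00104), beside the same 2.82% of genes. The sorting receptor Sort1, a partner of Ngfr, was also lower in every cKO library, at 20.4 to 24.1 against 28.4 to 41.6 FPKM (log2 fold change -0.67, limma adjusted p = 0.0259), under the fold minimum. limma called 0 of the 5 list genes tested. Of these 5, 4 had an unadjusted p under 0.05, beside 4894 of all 11804 genes tested.

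Between OE and Ctrl, Nrtn was at 12.05 to 18.3 against 3.55 to 9.86 FPKM, with every OE library higher. Erbb2 (0.201 to 0.331 against 0.420 to 0.664 FPKM) and the PACAP receptor Adcyap1r1 (0.268 to 0.445 against 0.483 to 0.782 FPKM), which also has VIP as a weak ligand, had every OE library lower. Over all genes of the table, 4.91% had every OE library higher and 1.05% had every OE library lower. By limma 0 of the 6 list genes tested were called, and 2 had an unadjusted p under 0.05, beside 778 of all 12132 genes tested.

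Ordered by group mean, with the tables normalized separately, Prph stood highest in OE (2.30 ± 0.398 FPKM), followed by cKO (0.525 ± 0.973), Flox (0.345 ± 0.391) and Ctrl (0.0371 ± 0.0657), each as mean ± SD of 4 libraries. Vip was ordered OE, Flox, cKO and Ctrl (1.91, 1.75, 1.48 and 0.0367 FPKM), and Chrna3 likewise, at 0.496, 0.0978, 0.0843 and 0.00779 FPKM. cKO and Flox overlapped for all 3 genes. For Vip the OE libraries (1.35 to 2.83 FPKM) also lay within the ranges of Flox (0 to 5.23 FPKM) and cKO (0 to 5.28 FPKM). Chow and HFD groups differed in diet and virus as well, so the order across them is a description only. Sox10 was ordered Ctrl, OE, cKO and Flox (0.211, 0.142, 0.118 and 0.116 FPKM), S100b was ordered in the same way (0.171, 0.155, 0.118 and 0.0524 FPKM), and Gfap was ordered Flox, OE, Ctrl and cKO (0.108, 0.0663, 0.0504 and 0.00821 FPKM), and neighbouring groups of the same diet overlapped in each. Ngfr was ordered cKO, Flox, OE and Ctrl (6.34, 3.72, 0.559 and 0.265 FPKM), and without Flox16 the Flox mean of 0.188 FPKM was the lowest of the 4. The first place of Ctrl for Sox10 rests on Ctrl5 (0.761 FPKM), as the other 3 Ctrl libraries were at 0.0109 to 0.0484 FPKM.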

How the data were processed

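RNA of mouse islets was sequenced by the authors on an Illumina NovaSeq instrument, and they deposited FPKM per gene in 2 tables, 1 for 8 chow libraries and 1 for 8 HFD libraries. The submitters' processing notes name mm10. The aligner, counter and annotation are not given in the sources used here. FPKM depends on the other transcripts of a library, so a large acinar share lowers other genes. Read counts were not used here, and fragments were recovered for the members from the step of 1 fragment.

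Groups were taken from the labels, and each table was tested alone. Genes averaging 0.5 FPKM or more across a table entered limma 3.58.1 (R 4.3.3) as log2(FPKM + 0.5) with trended, robust empirical Bayes, two-sided, and Benjamini-Hochberg adjustment covered all of them. Calls needed an adjusted p below 0.05 together with a log2 difference beyond 1 in size. Members under the filter were compared between cKO and Flox by exact permutation. Calling was tested on simulated data. Promoter windows come from RefSeq tables (GRCm38.p6), with 6 of 7 members matched. Tables were read with Python 3.11.15.

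The members and lists were chosen with earlier results of these data known. Some genes of the lists are not reported here. List genes were named where they were called or their groups did not overlap, at most 8 a list and comparison by absolute log2 difference; the 3 genes most like Prph, Vip, Chrna3 and Sox10 in the HFD table were also named. Alternatives were other pseudocounts, filters, scalings, an acinar covariate, plain empirical Bayes, a replicate block, 3 libraries per group, no fold minimum and leaving out each library.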

Additional observations from a re-analysis of the deposited data

Results flagged for a closer look

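In a group of 4, a library was singled out when its gap to the next value took up more of the range of the group than the Dixon limit allows. Of 28 combinations of member and group, 9 were singled out. The limit is set for independent, normally distributed values, of which about 1 in 20 would be singled out. Many values here were at or near 0 and members shared libraries, so the count is not compared with that rate. In cKO, cKO12 was far above the other libraries for Prph (1.98 FPKM) and Vip (5.28 FPKM). In Flox, Flox21 stood out for Gfap (0.323 FPKM), Flox17 for S100b (0.135 FPKM, 7 fragments) and Flox16 for Ngfr (14.3 FPKM). In Ctrl, Ctrl1 stood out for Prph (0.135 FPKM), Vip (0.147 FPKM) and Chrna3 (0.0311 FPKM), with 9, 7 and 4 fragments beside 1 or 0 in the other libraries. Ctrl5 stood out for Sox10 (0.761 FPKM, 59 fragments). No OE library was singled out for any member.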

How the results depend on the processing

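The number of genes called between cKO and Flox, 155, depended on the setting. It was 84 and 307 with pseudocounts of 1 and 0.1, 36 with median-of-ratios scaling, 34 after rescaling to genes outside the acinar list, 272 without trend and robust fitting, 268 with the replicate block, 699 with 3 libraries per group and 1631 with no fold minimum. It was 0 with every gene above 0 (5539 at an unadjusted p under 0.05) and 0 with the acinar share as a covariate (733 at an unadjusted p under 0.05), both by limma. Leaving out 1 library gave 18 (without cKO9) to 507 (without Flox17), with 491 without Flox16, 47 without Flox20, 44 without Flox21, 60 without cKO38, 227 without cKO8 and 127 without cKO12. Between OE and Ctrl the 4 calls became 10 with every gene above 0, 7 after rescaling outside the acinar list and 185 with the acinar covariate, and leaving out 1 library gave 4 to 5. The count of called members between cKO and Flox was 0 except without Flox16, where it was 1 (Ngfr), so leaving out 1 library gave 0 to 1. The higher to lower split of the cKO calls was 40 to 115 as deposited, 26 to 10 with median-of-ratios scaling and 28 to 6 after rescaling outside the acinar list. The causes were not tested.

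Small uncalled differences changed sign between cKO and Flox. Prph was at -0.15 with a pseudocount of 0.1 and -0.53 to 0.24 leaving out 1 library. Vip was at 0.0081 with the acinar covariate, 0.060 with 3 libraries per group and -1.19 to 0.24 leaving out 1 library. Chrna3 was at 0.036 with median-of-ratios scaling, 0.040 outside the acinar list, 0.048 with 3 libraries per group and -0.14 to 0.13 leaving out 1 library. Sox10 was at 0.053, 0.059, 0.12 and -0.12 to 0.078 in the same order. Leaving out 1 library gave OE minus Ctrl differences of 2.29 to 2.46 for Prph, 1.97 to 2.26 for Vip and 0.91 to 1.01 for Chrna3. Their OE and Ctrl groups did not overlap, so leaving out 1 library could not change the sign, and nothing is read from that.

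Replicate numbers did not pair the libraries: the deviations of same-numbered libraries correlated at -0.215 to 0.122 in chow and -0.132 to 0.102 in HFD, and 1 of 8 correlated best with its own number. With the replicate block 268 genes were called between cKO and Flox and 4 between OE and Ctrl, and 0 members between cKO and Flox. Members under the filter could not be fitted with the block, the covariate or a minimum of 1 FPKM. Many Sox10, Gfap and S100b values rest on fewer than 10 fragments, so counting error is large.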

Other observations

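Within the 4 OE libraries the neuron genes did not follow the level of the transgene in a common order. OE2 had the most Vtcn1 (128 FPKM) and the most Vip (2.83 FPKM), OE4 had the most Prph (2.83 FPKM) at 60.5 FPKM of Vtcn1, and OE3 the most Chrna3 (0.611 FPKM) at 74.1 FPKM of Vtcn1. Ghrl, the gene of ghrelin and one of those nearest to Chrna3, was at 5.47 to 9.98 FPKM in OE and at no more than 0.417 FPKM in Ctrl. In chow it was highest in cKO12 (7.62 FPKM), as Vip was, but was at 4.69 FPKM in Flox17 and only 1.93 FPKM in Flox21, the other library with over 5 FPKM of Vip. The peptide Gal, which some ganglion neurons contain, ran otherwise, at 2.44 FPKM in Ctrl5 and 63.1 FPKM in Ctrl3, the libraries with the lowest and the highest acinar share. Gal was outside the rule for named genes and was chosen after its values were seen.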
